A study of Mus musculus with 9 samples.

Results

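ATP-binding cassette (ABC) transporter genes were followed in kidney RNA from wild-type mice and from mice with the genotype Bmal1 -/-. Members were all gene symbols made of Abc, a subfamily letter from a to g and a digit, which gave 50 of the 23282 symbols in the tables. Both groups were of strain C57BL/6, with 4 wild-type and 5 knockout libraries made from whole kidney RNA by QuantSeq 3′ mRNA sequencing, in which reads come from the 3′ end of each transcript. The labels give no sex, age or hour of collection, and do not say whether the deletion was body-wide or which exons it removed. Whether the libraries of a genotype stem from separate animals is also not stated, and the p-values below therefore rest on library-to-library spread, which may be technical.

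ABC proteins bind ATP in a conserved cassette and, in most subfamilies, use it to move a substrate across a membrane. Subfamilies A and G carry mostly sterols and phospholipids, B and C hold the multidrug transporters, B also holds mitochondrial transporters, D acts in peroxisomes and lysosomes, and E and F are soluble proteins that act on ribosomes. In the proximal tubule, efflux pumps of the apical membrane pass drugs, conjugates and urate into the urine. BMAL1, encoded by Arntl, is the clock activator that binds E-boxes together with CLOCK or NPAS2.

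The values are deposited as log2(x + 1), where x is a read number the authors had already scaled, and levels in ppm are parts in 1000000 of the sum of x in a library. Library sums of x ran from 11765219 to 13486444. No correction for length was made, because 1 tag stands for 1 transcript. Comparisons between genes still depend on the authors' scaling, which is not stated, and on 3′ sequence shared with other genes. Arntl read 6.680, 6.263, 7.059 and 6.762 in wild type against 5.954, 5.647, 5.985, 5.802 and 5.862 in knockout on this log2 scale. A 3′ tag can lie outside the deleted part, so the Arntl values check the labels only in that every knockout library was lower. Wild-type library 2 and knockout library 4 stood apart in the share of x held by the ribosomal precursor Rn45s, at 11.3% and 14.4%. The other wild-type libraries had at most 7.20% and the other knockout libraries had 6.83% to 11.6%.

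Across all members, 33 passed the low-value filter (x of at least 10 in 4 or more libraries), 13 were detected below it and 4 (Abca12, Abca15, Abca16 and Abcc12) were listed at 0 in every library. With limma and Benjamini-Hochberg adjustment over all 13481 tested symbols at 0.05, 3 tested members were higher in knockout (9.09%) and 3 were lower (9.09%). The share of all tested symbols called was 6.16% higher and 8.2% lower, so neither count stood far from the background. The median log2 fold change, always given as knockout minus wild type, was -0.07 over the 33 members and 0.0002 over all tested symbols. The 2 genotypes did not overlap in 8 of the 33 (24.2%), against 14.3% of all tested symbols. In whole kidney RNA, fewer cells of a type and less RNA per cell cannot be told apart.

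Abcb1b, Abcc1 and Abcb9 were higher, and Abcc2, Abcd3 and Abca3 were lower. Abcb1b and Abcb9 belong to subfamily B (7 tested), Abcc1 and Abcc2 to C (7 tested), Abcd3 to D (3 tested) and Abca3 to A (9 tested). None of the 3 tested members of G, the 3 of F or the single member of E was called. Abcb1b, Abcc2 and Abcd3 kept their calls in each of 21 alternative fits, and the calls of Abcc1, Abcb9 and Abca3 were lost in 2, 13 and 12 of them.

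**Figure D1:**
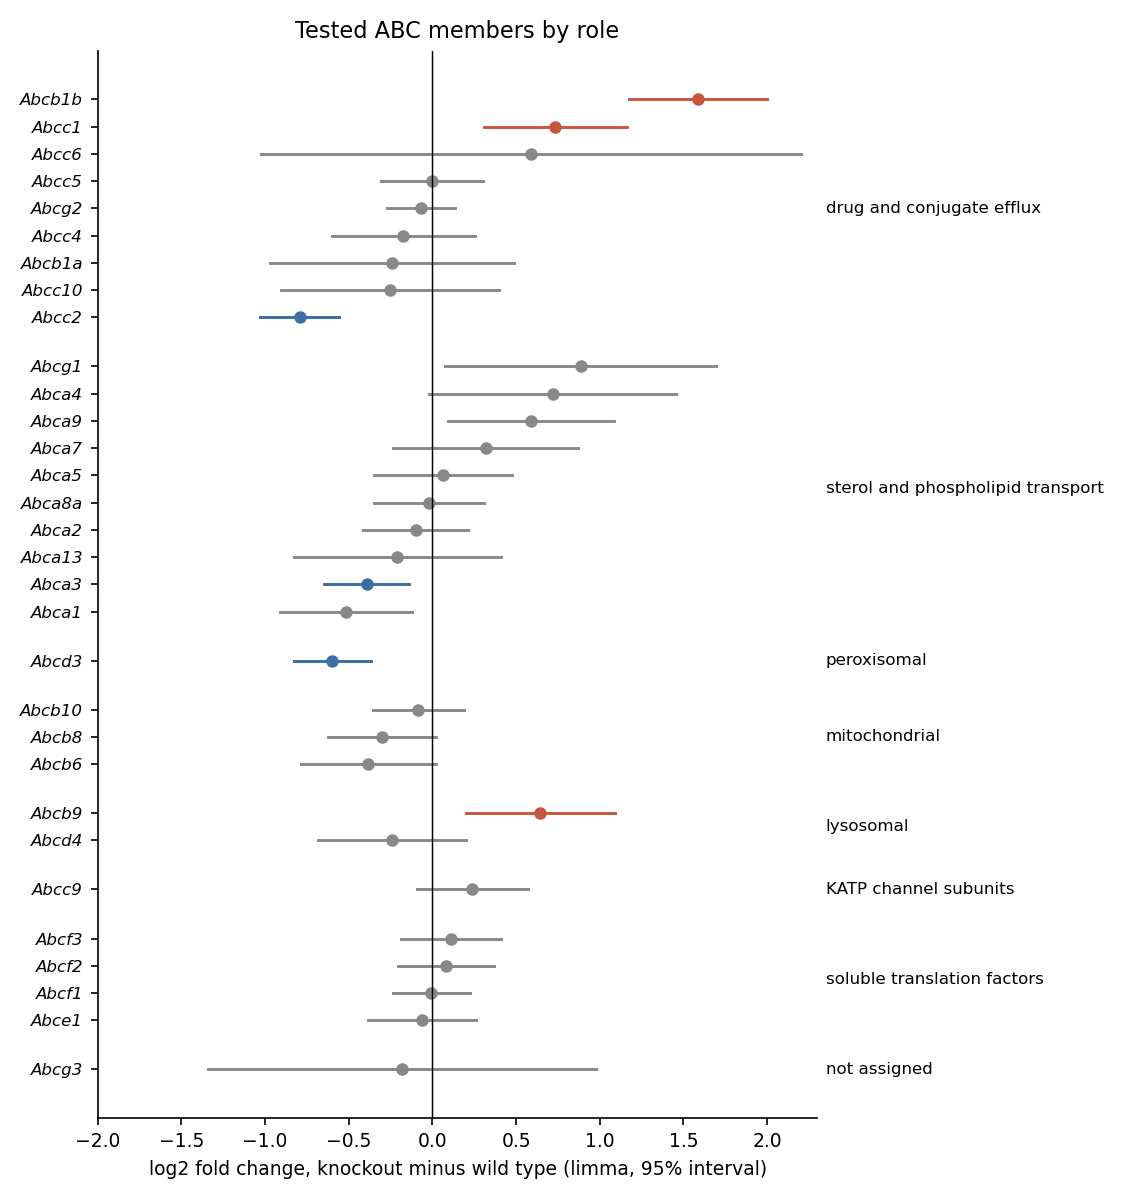
Log2 fold change (knockout minus wild type, horizontal axis) with its 95% limma interval for the tested members described here, grouped by role. Red marks the 3 members called higher, blue the 3 called lower and grey those not called; Abcb1b, at 1.59, is the farthest from 0.

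Promoter stretches are shown for Abcb1b, Abcc2 and Abca1, because the first of them had the largest rise, the second the largest fall, and the third holds a canonical E-box. Each is from RefSeq (GRCm38.p6), is written 5′ to 3′ on the gene's own strand and has the searched motifs in capitals. The motifs were the E-box CACGTG, the nuclear receptor half-site AGGTCA, the antioxidant element core TGACNNNGC and the CCAAT box, on both strands. For Abcb1b and Abca1 the 250 bases before the start are given. For Abcc2 only 30 bases around each of 2 motifs are given, since the GENCODE transcript begins farther upstream.
Abcb1b, chr5:8797897-8798146, plus strand: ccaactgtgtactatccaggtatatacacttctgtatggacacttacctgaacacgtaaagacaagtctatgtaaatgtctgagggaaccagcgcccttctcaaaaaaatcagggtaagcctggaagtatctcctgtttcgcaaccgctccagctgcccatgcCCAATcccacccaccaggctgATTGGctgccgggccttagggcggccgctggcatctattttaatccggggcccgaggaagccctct
Abcc2, chr19:43782200-43782229, plus strand: ctcactgggaTGACATAGCattcatctagc
Abcc2, chr19:43782247-43782276, plus strand: tgtcaggatgaaAGGTCAggagacttgcct
Abca1, chr4:53159896-53160145, minus strand: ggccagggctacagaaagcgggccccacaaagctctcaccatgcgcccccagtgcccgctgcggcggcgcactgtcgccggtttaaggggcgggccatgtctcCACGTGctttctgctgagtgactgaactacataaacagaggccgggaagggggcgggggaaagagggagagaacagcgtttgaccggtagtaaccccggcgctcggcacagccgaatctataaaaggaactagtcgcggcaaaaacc
In Abcb1b the capitals are 2 CCAAT boxes, CCAAT starting 87 bases before the start and its reverse complement ATTGG starting 66 bases before it. In Abcc2 they are TGACATAGC, which fits the antioxidant core, and AGGTCA, starting 98 and 49 bases before the RefSeq start. Both lie past the GENCODE start at 43782192, so by that annotation they are not upstream of the gene. The Abcc2 promoter also holds 2 CCAAT boxes on the other strand (ATTGG), outside the stretches shown. They start 202 and 28 bases before the RefSeq start, the nearer one again past the GENCODE start. In Abca1 the E-box starts 147 bases before the start.

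The promoter table held 45 promoters of 38 member genes. An E-box was present in promoters of 6 of the 38 (Abca1, Abca15, Abca8a, Abca8b, Abcc4 and Abcf1), of which 4 were tested and 0 called by limma. Of those 4, Abca1 alone had an unadjusted p under 0.05. CACGTG occurs in 7.15% of all 32851 promoters of this length. AGGTCA was found in 5 of the 38 genes (16.3% of all promoters), TGACNNNGC in 5 (12.4%) and CCAAT in 15 (37.4%). A match is a description of letters, and these libraries hold no measurement of binding.

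Of 12 drug and conjugate efflux pumps, 9 were tested, 2 were higher and 1 was lower. Among all tested symbols 6.16% were higher and 8.2% were lower, and no test of the group was run. Abcb1b and Abcb1a are the 2 mouse genes for P-glycoprotein, the multidrug pump that expels many hydrophobic drugs. Abcb1b (chromosome 5, 8798147 to 8866315, plus strand, GRCm38) read 5.835, 6.054, 6.160 and 6.457 in wild type. In knockout it read 7.506, 7.644, 8.279, 7.458 and 7.678. All 5 knockout libraries were above all 4 wild-type libraries, and knockout library 3 was the highest. Abcb1b rose by 1.59 log2 units (SE 0.20, limma adjusted p = 2.1e-05), which is 3.00-fold, from 5.46 to 17.4 ppm.

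Abcb1a (chromosome 5, 8660077 to 8748575, plus strand) lies next to it and did not pass the test. It read 6.037, 4.473, 6.431 and 6.487 in wild type against 5.421, 5.448, 6.007, 5.514 and 5.688 in knockout. The wild-type libraries spread on both sides of the knockout ones, with wild-type library 2 the lowest of all 9. Its difference was -0.24 (SE 0.35, 95% interval -0.97 to 0.49, limma adjusted p = 0.702). Without wild-type library 2 the value was -0.70, with adjusted p = 0.0564.

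Abcb1b held 46.4%, 75.5%, 45.3% and 49.5% of the summed x of the pair in wild type. In knockout it held 81.2%, 82.4%, 83.0%, 79.6% and 80.1%. Every knockout share was above every wild-type share, and the wild-type library nearest to them was library 2, where Abcb1a was low. The difference Abcb1b minus Abcb1a within a library went from 0.27 ± 0.88 (SD, n = 4) to 2.10 ± 0.14 (SD, n = 5), a shift of 1.83 (SE 0.39, exact two-sided permutation p = 0.00794, 0.0185 adjusted over 7 such comparisons). That p is the smallest these group sizes allow, and the 7 comparisons were chosen after values had been seen. In the last 500 bases of coding transcripts, 17.4% of Abcb1b's 50-base words also occur in Abcb1a or Abcb4 transcripts, while none of Abcb1a's are shared, so a part of the Abcb1b tags could be split between the paralogs.

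**Figure D2:**
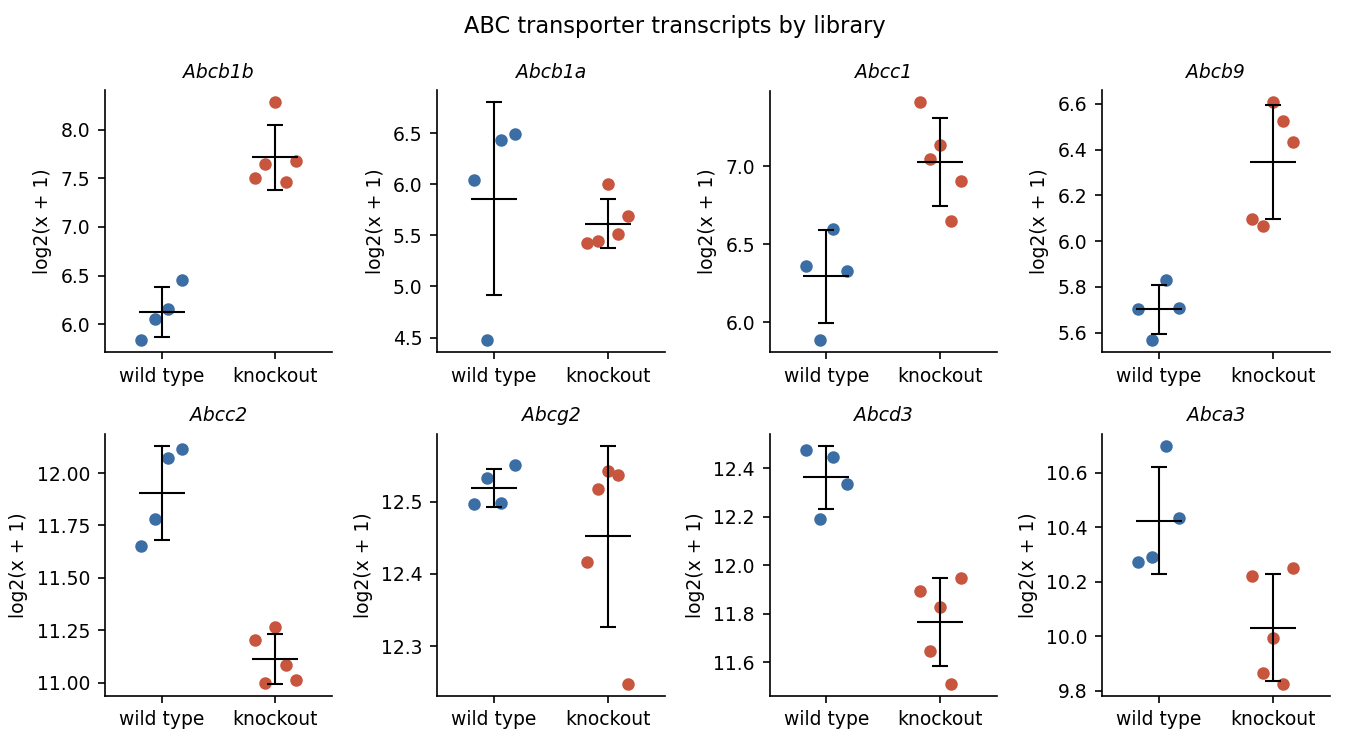
Deposited log2(x + 1) values (vertical axes, each with its own range) of 8 members in 4 wild-type (blue) and 5 knockout (red) libraries, with the mean and SD in black. Abcb1b, Abcc1, Abcb9, Abcc2 and Abcd3 show no overlap, while Abcb1a and Abcg2 overlap and Abca3 is separated by a small gap.

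Abcc1 (MRP1, chromosome 16, 14361558 to 14475737, plus strand) exports glutathione conjugates across basolateral membranes. It read 6.362, 5.884, 6.600 and 6.331 in wild type against 7.410, 7.046, 7.137, 6.647 and 6.908 in knockout. The groups did not overlap, but the lowest knockout library (6.647) lay just above the highest wild-type library (6.600). Abcc1 rose by 0.74 (SE 0.20, limma adjusted p = 0.0205), from 6.19 to 10.8 ppm. The call was lost without knockout library 1 (adjusted p = 0.0535) or knockout library 3 (adjusted p = 0.0508).

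Abcc2 (MRP2, chromosome 19, 43782192 to 43840740, plus strand) exports conjugates across the apical membrane of the proximal tubule. It read 11.653, 11.782, 12.071 and 12.117 in wild type against 11.205, 10.999, 11.266, 11.082 and 11.011 in knockout. Every knockout library was below every wild-type library. Abcc2 fell by 0.79 log2 units (limma adjusted p = 9.2e-05, SE 0.11), a 1.73-fold lower level, from 303.4 to 180.7 ppm.

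Abcg2 (BCRP, chromosome 6, 58584523 to 58695676, plus strand), the apical pump for urate and drugs, was the most abundant ABC transcript. It read 12.497, 12.532, 12.498 and 12.550 in wild type against 12.416, 12.517, 12.542, 12.537 and 12.248 in knockout. The groups overlapped, with knockout library 5 the lowest. Abcg2 stood at 458.9 ± 15.9 ppm (SD, n = 4) in the wild-type group and at 456.6 ± 27.6 (SD, n = 5) in the knockout group. Its log2 difference was -0.07 (95% interval -0.27 to 0.14, limma adjusted p = 0.703). The difference Abcc2 minus Abcg2 fell by 0.73 (SE 0.12, exact permutation p = 0.00794, 0.0185 adjusted over the 7). Because the pair was chosen with both results known and Abcg2 was flat, this largely repeats the fall of Abcc2. It is not separate support.

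The remaining tested pumps were not called. Abcc4 (MRP4), an apical exporter of organic anions and cyclic nucleotides, read 7.742, 7.667, 8.397 and 8.297 in wild type against 7.956, 7.433, 7.890, 7.540 and 8.437 in knockout. Abcc5, an exporter of cyclic nucleotides, read 7.595, 8.244, 8.120 and 8.012 against 7.901, 8.029, 8.019, 8.074 and 7.931. Abcc10 read 4.532, 5.025, 5.101 and 5.147 against 4.569, 4.898, 4.256, 4.956 and 4.806. In each of the 3 the genotypes overlapped, and the interval of Abcc5 (-0.31 to 0.30) was the narrowest.

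Abcc6, whose loss causes ectopic mineralisation, read 4.507, 0.130, 4.675 and 3.762 in wild type against 3.322, 3.805, 3.008, 4.230 and 4.921 in knockout. Wild-type library 2 was near 0 while the other 8 were above 3. Its log2 difference was 0.59 (SE 0.77, limma adjusted p = 0.670) with all libraries and -0.46 without wild-type library 2, so that library set the sign.

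Genes that work beside these pumps were counted in listed groups. Of 8 other transporters and scaffolds of the tubule, not all of them efflux carriers, 0 were higher and 5 were lower by limma. The shares of all tested symbols were 6.16% higher and 8.2% lower. Those 5 were the urate and phosphate transporters Slc17a3 (-1.14, adjusted p = 4.0e-05) and Slc17a1 (-0.89, adjusted p = 4.2e-05), the urate exchanger Slc22a12 (-0.72, adjusted p = 0.00801), the cation exporter Slc47a1 (-0.64, adjusted p = 2.8e-04) and the scaffold Pdzk1 (-0.44, adjusted p = 0.00478). Of 8 tested xenobiotic receptor and NRF2 genes, 1 was higher and 0 were lower. It was Nr1i2, which encodes the pregnane X receptor (0.85, adjusted p = 0.0126). The ABC genes that carry other symbols, the peptide transporters Tap1 and Tap2 and the chloride channel Cftr, gave 0 calls of 3.

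Markers of cell types were counted as well. Only the proximal tubule and endothelium lists were set against single members, and these libraries do not place the pumps in a cell type. Of 10 proximal tubule markers, 0 were higher and 3 were lower, against 6.16% higher and 8.2% lower of all tested symbols. Those 3 were Slc22a6 (-1.21), Slc13a3 (-0.96) and Ggt1 (-0.89), each a larger fall than that of Abcc2. Among the uncalled, Slc5a12, Slc5a2 and Aqp1 stood at 0.04, 0.08 and 0.17, and Slc34a1, Cubn, Lrp2 and Kap at -0.28 to -0.67. The summed x of the 10 was 573765 to 783716 in wild type and 416672 to 450168 in knockout. Much of that sum is Kap, which was not called (-0.67, limma adjusted p = 0.0604). Against the mean log2 value of the 10 markers in the same library, Abcc2 fell by 0.32 (SE 0.10, exact permutation p = 0.0317, 0.0444 adjusted over the 7). Those differences overlapped, since wild-type library 1 (-1.87) lay below knockout library 3 (-1.81). Their size depends on which markers enter the mean, and other choices were not tested. Of 10 endothelium markers, 4 were higher and 0 were lower, with sums of 4063 to 5636 in wild type and 5091 to 8980 in knockout. Against the endothelium mean, Abcb1b rose by 1.15 (SE 0.26, exact permutation p = 0.0159, 0.0278 adjusted over the 7) and the groups did not overlap. Abcc1 differed from that mean by 0.30 (SE 0.34, exact permutation p = 0.405, adjusted 0.405).

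**Figure D3:**
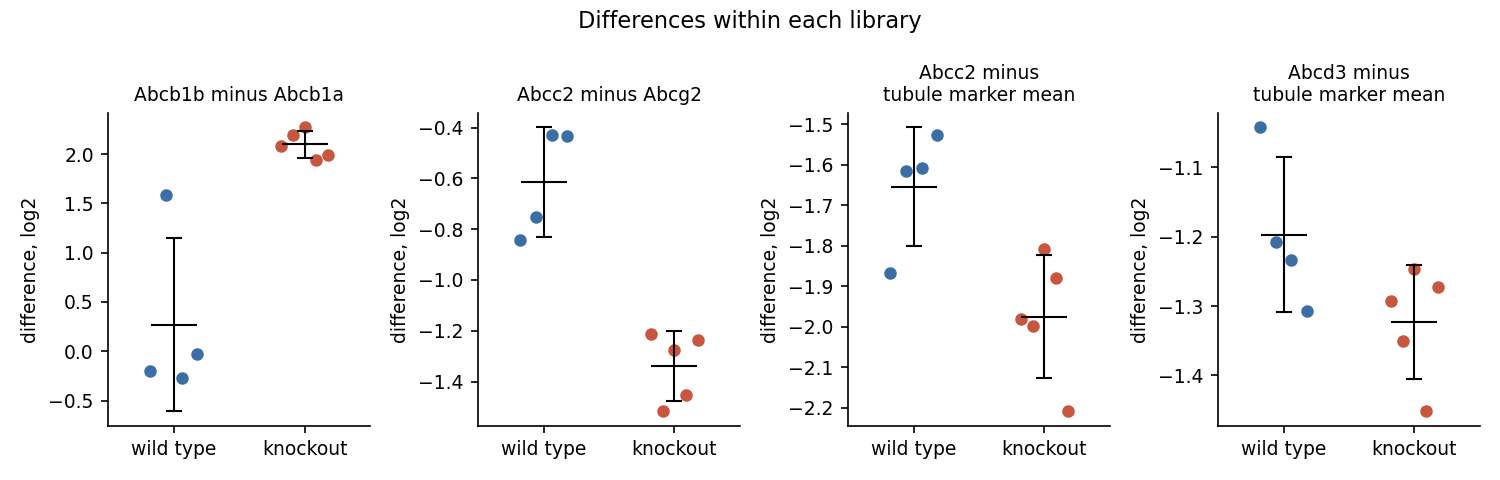
Differences within each library (log2 units, vertical axes) between Abcb1b and Abcb1a, between Abcc2 and Abcg2, and of Abcc2 and Abcd3 from the mean of 10 proximal tubule markers, with the mean and SD in black. Wild type (blue, 4 libraries) and knockout (red, 5 libraries) separate in the panels of the 2 gene pairs and overlap in both panels against the markers.

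Calls in the other marker lists are given beside the 6.16% higher and 8.2% lower of all tested symbols. Urothelium had 5 higher of 6 tested (summed x 53 to 173 in wild type, 265 to 956 in knockout), thick limb and distal tubule 4 of 6, collecting duct 3 of 7, fibroblast 2 of 6, and podocyte and smooth muscle 1 each, of 6 and 8. None of these was lower. Macrophages had 0 higher and 1 lower of 8, hepatocyte markers 2 higher and 1 lower of 5, and adipocyte and blood markers gave 0 calls of 3 and 6. The adipocyte markers were uneven among libraries, with summed x of 1198 to 2589 in wild type and 1649 to 10313 in knockout. Adipoq, which was not tested, read 0, 6.436, 2.817, 4.694 and 9.057 in knockout and at most 2.689 in wild type. No listed marker was at 0 in all libraries, and the part of these cell types in the ABC differences was not tested beyond the marker differences above.

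Sterol and phospholipid transporters, from subfamilies A and G, had 16 members, of which 10 were tested, 0 were higher and 1 was lower. The background shares were 6.16% higher and 8.2% lower of all tested symbols. Abca3 (chromosome 17, 24351950 to 24410201, plus strand), which loads phospholipid into lamellar bodies of the lung, was the most abundant of subfamily A. It read 10.274, 10.291, 10.699 and 10.434 in wild type against 10.221, 9.865, 9.992, 9.825 and 10.249 in knockout. All knockout libraries were lower, with a gap between 10.249 and 10.274. Abca3 fell by 0.39 log2 units (limma adjusted p = 0.0369, SE 0.12). The call was lost without wild-type library 3 (adjusted p = 0.133) or 4 (adjusted p = 0.0816), or knockout library 2 (adjusted p = 0.0949), 3 (adjusted p = 0.0772) or 4 (adjusted p = 0.0979). It was also lost under each of the 4 other scalings (adjusted p 0.0780 to 0.136), in limma without a trend (adjusted p = 0.108) and in a fit that took Rn45s as covariate (adjusted p = 0.163).

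Another 3 of this group had an unadjusted p under 0.05 without passing the adjusted test. Abca1, which hands cholesterol to apolipoprotein A-I, read 7.808, 7.732, 7.772 and 7.958 in wild type against 7.047, 7.582, 6.708, 7.614 and 7.564 in knockout, with no overlap. Its difference was -0.51 (SE 0.19, limma adjusted p = 0.0758). Abca9 had a difference of 0.59 (SE 0.24, adjusted p = 0.108), again with no overlap. Without wild-type library 1, its lowest value, the difference was 0.36 (adjusted p = 0.329). A fit that took Rn45s as covariate gave 0.33. Abcg1, which passes cholesterol to high-density lipoprotein, had 0.89 (SE 0.39, adjusted p = 0.142), and its libraries overlapped. Without wild-type library 2 its difference was 0.51, and without knockout library 5, its highest, it was 0.68. Adipocyte markers were also highest in knockout library 5, and a link to Abcg1 was not tested.

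The sterol partners of these transporters gave 1 higher and 4 lower of 15 tested by limma. Of all tested symbols, 6.16% were called higher and 8.2% lower. Apoe, a lipoprotein component, rose by 0.70 (adjusted p = 6.6e-04). The bile acid receptor gene Nr1h4 fell by 0.57 (adjusted p = 0.0167), the oxysterol receptor gene Nr1h3 by 0.49 (adjusted p = 0.0115), Lpcat3, a phospholipid remodelling enzyme, by 0.45 (adjusted p = 0.00504) and Rxra, the partner receptor, by 0.35 (adjusted p = 0.0214).

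Abcd3 (PMP70, chromosome 3, 121758774 to 121815302, minus strand) imports branched-chain and bile acid intermediates into peroxisomes and was the most abundant of subfamily D. It read 12.477, 12.191, 12.447 and 12.336 in wild type against 11.893, 11.646, 11.828, 11.511 and 11.947 in knockout. Every knockout library was below every wild-type library. Abcd3 fell by 0.60 log2 units (limma adjusted p = 0.00112, SE 0.11), from 413.8 to 286.0 ppm. Against the proximal tubule marker mean the difference was -0.13 (SE 0.06, exact permutation p = 0.0794, 0.0926 adjusted over the 7), which missed the threshold, with overlapping groups.

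Of 12 genes for peroxisome import and beta-oxidation, 0 were higher and 5 were lower, against 6.16% higher and 8.2% lower of all tested symbols. Among the lower genes were the bifunctional enzyme gene Ehhadh (-1.26, adjusted p = 0.0330), catalase Cat (-0.68, adjusted p = 3.6e-04), the sterol carrier thiolase Scp2 (-0.53, adjusted p = 0.00418) and the thiolase Acaa1a (-0.49, adjusted p = 0.00367). Ehhadh read 10.860, 8.151, 8.218 and 9.058 in wild type and 7.434 to 8.151 in knockout. Its wild-type library 1 thus stood apart, and the genotypes met at 8.151. The import receptors Pex5, Pex7 and Pex19 were not called.

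The 4 mitochondrial members, tied to heme and iron-sulfur handling, were all tested and 0 were called, with a median difference of -0.34. Abcb10, the most abundant of subfamily B, read 8.686, 8.317, 8.853 and 8.637 in wild type against 8.672, 8.571, 8.607, 8.356 and 8.490 in knockout, which overlapped. Abcb6 and Abcb8 had differences of -0.38 (adjusted p = 0.207) and -0.30 (adjusted p = 0.212), and 82.9% of Abcb6's 3′ words also occur in the overlapping gene model Gm29253. Of 13 heme and iron-sulfur partners, 0 were higher and 1 was lower, the porphyrin enzyme gene Cpox. These counts stand beside 6.16% higher and 8.2% lower of all tested symbols.

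In lysosomes, Abcb9 (TAPL, chromosome 5, 124061530 to 124095798, minus strand) carries peptides. It read 5.704, 5.567, 5.829 and 5.708 in wild type against 6.098, 6.066, 6.607, 6.526 and 6.434 in knockout, with no overlap. Abcb9 rose by 0.64 (SE 0.21), but its limma adjusted p of 0.0490 was just under 0.05. The call was lost without any one of the 4 wild-type libraries (adjusted p 0.0731 to 0.0941) and without knockout library 3, 4 or 5 (adjusted p 0.0947 to 0.120). Abcd4, which works in lysosomal cobalamin export, was not called (-0.24, SE 0.21, adjusted p = 0.497).

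Abce1, which splits ribosomes for recycling, read 9.370, 8.693, 9.113 and 9.238 in wild type against 9.230, 9.393, 8.742, 8.979 and 8.859 in knockout. Abcf1, an initiation factor partner and the most abundant of subfamily F, read 9.786, 9.794, 9.916 and 9.761 against 9.766, 9.746, 10.103, 9.774 and 9.653. In both the genotypes overlapped, and the lowest Abce1 value of all 9 libraries was that of wild-type library 2. For these and for Abcf2 and Abcf3 the 95% limma intervals all lay within a 1.5-fold change in either direction, the widest being -0.39 to 0.26 for Abce1. Of their 9 ribosome recycling and initiation partners, 0 were higher and 2 were lower, Hbs1l and Gspt1. Among all tested symbols the shares were 6.16% higher and 8.2% lower.

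Abcc9, the regulatory subunit of potassium channels closed by ATP in vessels, was not called (0.24, SE 0.16, limma adjusted p = 0.358). Of 2 tested potassium channel pore genes, Kcnj8 was not called (0.07, limma adjusted p = 0.896). The other, Kcnj1, belongs to a different channel, that of the thick limb and collecting duct, and was higher (0.57). Abcg3, a rodent relative of Abcg2, was near the filter and not called (-0.18, SE 0.55, adjusted p = 0.872).

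The makeup of the ABC transcript pool was set by a small number of members. Abcg2, Abcd3 and Abcc2 together held 62.2% to 67.0% of all ABC x in wild type and 58.6% to 61.2% in knockout, with no overlap. The share of Abcg2 was 25.5% ± 2.0 (SD, n = 4, wild type) and 29.7% ± 2.7 (SD, n = 5, knockout). These shares overlapped (22.95% to 27.71% against 26.2% to 32.34%), and the level of Abcg2 itself was 458.9 and 456.6 ppm. The share of Abcd3 was 22.9% ± 2.1 and 18.5% ± 2.0, and that of Abcc2 was 16.7% ± 1.5 and 11.7% ± 0.6, in the same order. Summed ABC x was 1585 to 2031 ppm in wild type and 1420 to 1630 in knockout, which overlapped.

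**Figure D4:**
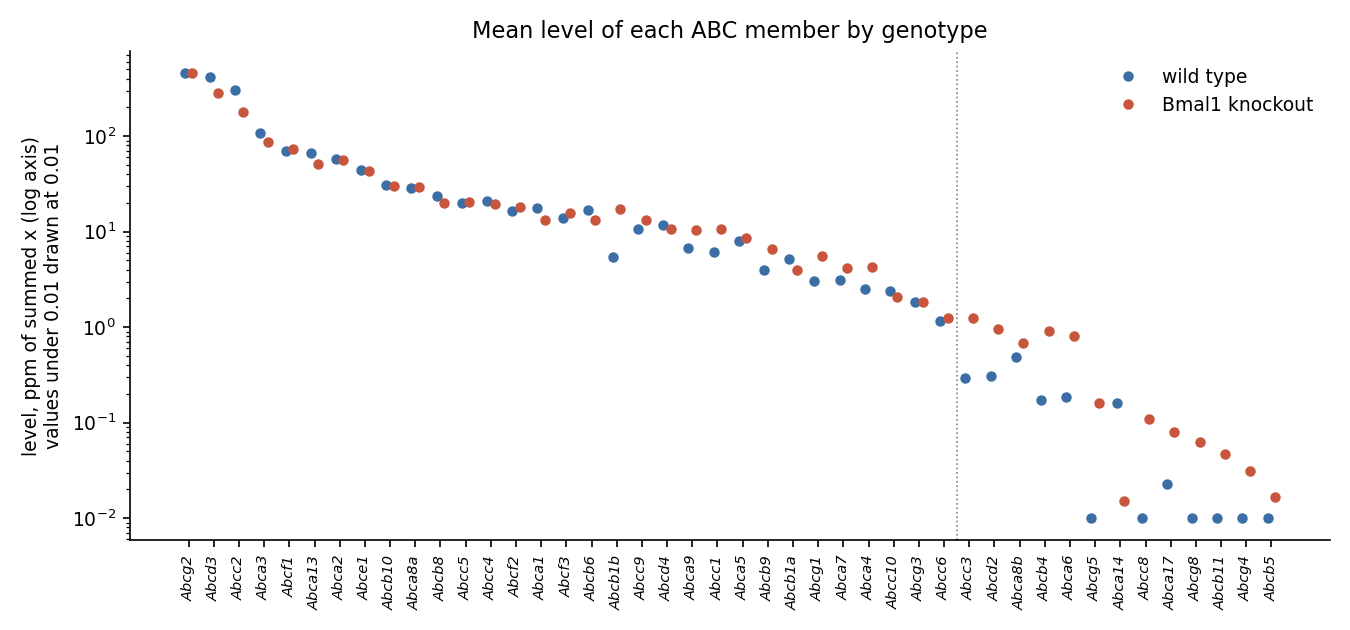
Mean level in ppm (adjusted reads, log axis) of the detected members described here in wild type (blue) and knockout (red), ordered by their mean over all libraries, with values under 0.01 drawn at 0.01 and a dotted line between tested and untested members. Levels span from 458.9 ppm for Abcg2 in wild type to untested members near 0, and among the 10 most abundant the largest gap is that of Abcc2.

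At the edge of the filter, Abcc6 reached an x of 10 in 6 libraries and Abcg3 in 7, while Abcc3, Abcb4, Abca6 and Abca8b did so in 3 and Abcd2 in 2.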

How the data were processed

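Total RNA of 9 mouse kidney samples was sequenced as 3′ tags with a QuantSeq kit, per the labels' protocols. Reads were handled with Bowtie2 and bedtools on mm10, per the submitters' processing notes, with versions not given in the sources used here. The authors deposited 1 value per gene symbol and library on a log2 scale, with 0 as the lowest value; the scaling is not given in the sources used here, and back-transformed x is not whole reads, so no count test was run. Raw depth is therefore unknown. Values were tested with limma 3.58.1 (trend, two-sided) in R 4.3.3, with genotype as the single term, on symbols with x of at least 10 in 4 or more libraries, at an adjusted p of 0.05. The fit was tested on simulated data. Fold changes are on the log2(x + 1) scale and understate low genes. Differences within a library were compared by exact permutation over the 126 assignments of libraries. Values in every library are given for called members, for the most abundant of each subfamily and for tested efflux pumps. The other members are given by ranges and counts. Positions are from GENCODE M21 (GRCm38), promoters from RefSeq. All 50 members and every gene list were chosen with earlier results of these data known. Some genes that belong to the lists are not reported here and are not drawn in the figures, while counts include them.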

Additional observations from a re-analysis of the deposited data

Results flagged for a closer look

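A check for single libraries far from the rest of their group was made in 66 groups (33 tested members in each genotype). It marked 4 groups, 2 in wild type and 2 in knockout, where chance alone marks about 1 group in 20. Abca9 read 5.711 in wild-type library 1 and 6.600 to 6.674 in the other wild-type libraries. Abcb8 read 8.582 in wild-type library 3 and 8.086 to 8.156 in the others. Abcb1b read 8.279 in knockout library 3 and 7.458 to 7.678 in the others, all of them above the highest wild-type value of 6.457. Abcf1 read 10.103 in knockout library 3 and 9.653 to 9.774 in the others.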

How the results depend on the processing

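Of 21 other fits (filter, pseudocount, 4 scalings, limma settings, Rn45s as a covariate, a replicate block, the joint removal of wild-type library 2 and knockout library 4, each library left out), Abcb1b, Abcc2 and Abcd3 were called in all. Left-out libraries gave 1 to 3 members higher (1 without knockout library 3). The causes of the changes below were not tested. The member median was 0.0714 without a filter. Scaling to the total without Rn45s gave a member median of 0.0379 and an all-symbol median of 0.10, with 1272 symbols higher and 695 lower; limma without a trend gave 734 lower. The higher share of calls was 42.9% as deposited, 50.7% with quantile, 56.8% with total, 64.7% with total without Rn45s and 58.1% with upper-quartile scaling. Uncalled members changed sign. With the total without Rn45s, Abcb10 was 0.0209, Abcc5 0.1028, Abce1 0.0421, Abcf1 0.0992 and Abcg2 0.0379. With quantile scaling, Abcc5 was 0.0063, Abcc6 -0.0356, Abce1 0.0072, Abcf1 0.0784 and Abcg2 0.0465. With the total, Abcc5 was 0.0563 and Abcf1 0.0525. With the upper quartile, Abcc5 was 0.0731, Abce1 0.0123, Abcf1 0.0694 and Abcg2 0.0081. With Rn45s as a covariate, Abcb10 was 0.0378, Abcb1a 0.0620, Abcc4 0.0019 and Abce1 0.0825. Without wild-type library 2 and knockout library 4, Abcc5 was 0.0610 and Abcc6 -0.5507. Left-out libraries gave -0.1345 to 0.0818 for Abcc5, -0.4575 to 1.0575 for Abcc6, -0.1997 to 0.0259 for Abce1 and -0.0795 to 0.0330 for Abcf1. The labels do not say whether equal replicate numbers pair the libraries. Correlations were -0.01 to 0.15 for equal numbers and -0.16 to 0.09 for unequal ones, which cannot settle it. A replicate block over libraries 1 to 4 called 1739 symbols, with 2 members higher, 3 lower, Abcc5 at 0.0130 and Abcf1 at 0.0330. Reads per library are not known, so depth could not be set beside low values.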

Other observations

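Among the 13 members detected below the filter, only Abcc3 and Abcb4 showed no overlap between genotypes, and both were higher in knockout. Of all tested symbols 14.3% showed no overlap, and the share among symbols below the filter was not computed. Abcc3 (MRP3), a basolateral exporter of conjugates and bile acids, had an x of 2.58, 0.077, 4.87 and 7.36 in wild type against 11.9, 29.2, 18.1, 8.97 and 9.22 in knockout, with every knockout library above every wild-type library. Abcb4, which exports phosphatidylcholine into bile in the liver and neighbours Abcb1b, had an x of 2.52, 0.061, 2.92 and 3.19 against 13.0, 13.2, 20.1, 3.47 and 5.83, again without overlap. Part of its 3′ words (6.76%) is shared with Abcb1a or Abcb1b. Both were chosen after their values were seen, and they can only be seen through the group in which they are higher, so no test is given.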
